A study of Mus musculus with 6 samples.

Results

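The genes described here encode proteins of the centrosome and of the primary cilium, taken by name: the Cep family of centrosomal proteins, the Ift subunits of intraflagellar transport, the Bbs genes, the kinesin motors Kif3a, Kif3b and Kif3c, and the tectonics Tctn1 to Tctn3. Of the 19938 genes with a probe set of their own, 65 have such a symbol: 37 Cep, 14 Ift, 8 Bbs, 3 Kif3 and 3 Tctn genes. For 5 of the 65 more than 1 probe set was present, and the one with the highest mean over all 6 arrays was used. The genes were taken by name, but they were proposed with earlier results of these data known.

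The 6 one-colour Affymetrix arrays hold RNA of cultured dermal cells from the skin of neonatal C57BL/6 mice, collected after 2 days of treatment. The FR group (3 arrays) received forskolin, which activates adenylyl cyclase and raises cyclic AMP, and RepSox, an inhibitor of the TGF-β type I receptor kinase, each at 20 µM. The control group (3 arrays) is labelled DMSO, after the solvent. The labels used here give no genotype, sex or age beyond this, and leave unstated whether the arrays of a group stand for different animals or cultures. The p-values therefore rest on array-to-array spread, and that spread may be technical. Levels are log2 RMA values, and a change is the difference of the group means, FR minus DMSO, on the log2 scale. "Rose" and "fell" mean an adjusted p under 0.05 in limma's test over all 19938 genes.

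A cell has a pair of centrioles surrounded by protein, the centrosome, which organises microtubules and the mitotic spindle. When the cell leaves the division cycle, the older centriole docks at the membrane through its distal appendages and grows a primary cilium, a single antenna that dermal fibroblasts use to sense Hedgehog and other ligands. Proteins move up the cilium on intraflagellar transport trains with complex B pulled by kinesin-2 and return with complex A pulled by dynein-2. The BBSome carries membrane proteins out of the cilium, and the transition zone at its base, which holds the tectonics, acts as a gate. The transcription factors of the RFX family drive many of these genes through a promoter element named the X-box.

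The X-box is shown first because it is the sequence feature known to be shared by ciliary genes. RefSeq promoters (build GRCm38.p6, 250 bases before to 50 after the first listed start) were available for 57 of the 65 genes and for 27025 genes in all. The RFX core GTTGCC, searched on both strands, was present in 21 of the 57 (36.8%), against 12.7% of all promoters. The full X-box, the core followed after 2 bases by its mirrored partner GGNAAC, was present in 3 of the 57 (5.26%), against 0.303% of all promoters, and any X-box also counts as a core. The stretches below run 5′ to 3′ on the strand of the gene, with the cores and the partners in the X-boxes in capitals. In Bbs7 (minus strand, chr3:36613457-36613550) the X-box begins 121 bases before the start, and in Cep19 (plus strand, chr16:32099803-32099832) and Tctn1 (minus strand, chr5:122264411-122264432) it begins at base 23 and base 37 after the start. Cep41 (minus strand, chr6:30693826-30693920) is shown with them because its 2 facing cores lie 3 bases apart in place of 2, the first beginning 131 bases before the start.

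Bbs7: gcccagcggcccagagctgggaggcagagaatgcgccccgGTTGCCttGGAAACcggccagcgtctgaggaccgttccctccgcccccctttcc
Cep41: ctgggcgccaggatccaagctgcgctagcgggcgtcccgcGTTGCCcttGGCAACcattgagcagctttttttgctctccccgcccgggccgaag
Cep19: agccttctGTTGCCttGGGAACgatcctcg
Tctn1: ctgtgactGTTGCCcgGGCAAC

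The genes shown differed in their calls. Bbs7 and Cep41 fell with FR, while Cep19 (log2 change -0.24, adjusted p = 0.103) and Tctn1 (-0.06, adjusted p = 0.669) did not pass. Of the genes with a promoter, the core was in 4 of 16 that fell, in 0 of 4 that rose and in 17 of 37 that did not pass. The cell cycle homology region (TTTGAA or TTCGAA, both strands), an element of genes expressed in mitosis, was in 9 of the 57 (15.8%), against 19.4% of all promoters. The cyclic AMP response element TGACGTCA was in 2, those of Cep57 and Ift57, or 3.51%, against 1.88% of all promoters, and neither gene passed.

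The genes moved by small amounts, and more of them fell than rose. Of the 65, 18 fell (27.7%) and 4 rose (6.15%), while 43 did not pass. Over all genes tested 14.5% fell and 13.4% rose, so that 48.0% of all calls were rises, or 37.1% with each array centred on its median. The median change of the 65 was -0.17, against 0.05 for all genes. Of the 65 changes 54 lay below 0 (83.1%), against 41.4% over all genes. None reached a 2-fold change, which 624 of all genes (3.13%) did with a passed test, and among the genes with both group means above 5.77, the background level explained in the next paragraph, only Ift80 exceeded 1.5-fold. Without DMSO replicate 1 the number that rose was 2 rather than 4, and over the 6 fits that each left out 1 array between 12 and 16 fell.

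The share of genes that fell differed with level. Olfactory receptor genes, which dermal cells are not known to use, had a median change of 0.14, and the 95th percentile of their mean levels, 5.77, is used as the background level. Of the 65 genes, 61 had a mean above it, and of those 17 fell (27.9%) and 3 rose (4.92%). Among all 11999 genes above the background level, 22.5% fell and 14.0% rose. The share of falls among the 61 lay nearer to that of these 11999 genes than to that of all genes, while their share of rises lay below both. Of the 11999 genes 53.4% had a change below 0 (median change -0.02), against 83.6% of the 61 (median change -0.17). The 2 sets were not matched by level (median level 7.35 for the 11999 genes and 6.95 for the 61). With dim genes left out of the fit, 21 of 61 fell (34.4%), against 26.7% of all genes fitted, and 4 rose (6.56%), against 17.8%. Every FR array lay below every DMSO array for 30 of the 65 genes and above for 7, against 20.9% and 23.0% of all genes, and 32.0% and 22.7% of the genes above the background level. In bulk RNA, fewer cells of a type and less RNA per cell cannot be told apart.

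**Figure D1:**
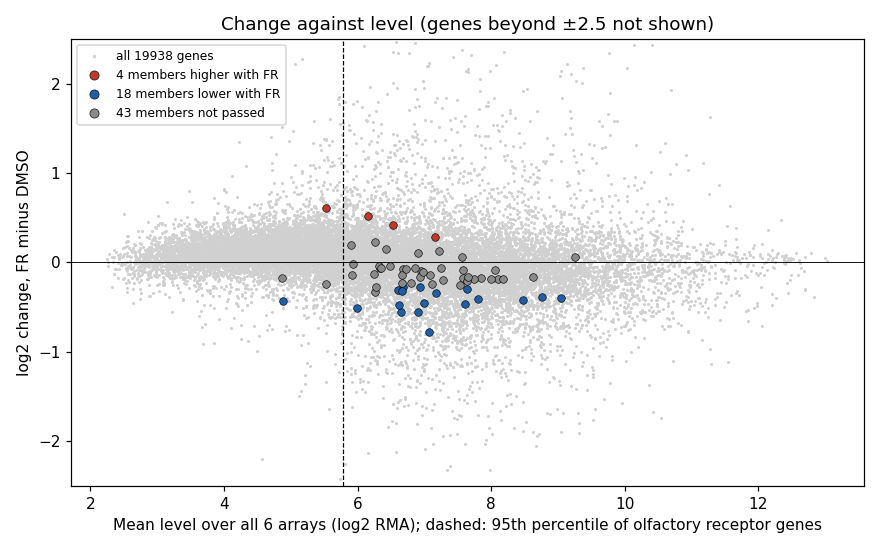
Each gene's mean level over all 6 arrays (x axis, log2 RMA) is plotted against its change (y axis, log2, FR minus DMSO), with all genes in grey and the 65 centrosome and cilium genes as circles: red for the 4 that rose, blue for the 18 that fell, grey for the 43 that did not pass. The 65 lie mostly right of the dashed background level of 5.77 and mostly below 0, within the cloud of all genes.

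Beside the counts by role that follow, 14.5% of all genes fell and 13.4% rose, or 22.5% and 14.0% above the background level. No centriole duplication gene passed as lower. Of 12 measured, 0 fell and 1 rose in limma's test, while 10 had a change below 0 (median -0.19) and 6 were lower at an unadjusted p under 0.05. The member that rose was Cep44, whose product binds the centriole wall. Its levels were 6.79, 6.85 and 6.56 in the FR arrays, against 6.17, 6.35 and 6.44 in the DMSO arrays, a log2 change of 0.42 (SE 0.105, adjusted p = 0.0133), and the groups did not overlap. Leaving out DMSO replicate 1 ended the call (adjusted p = 0.0595).

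Cep63, which with Cep152 marks where a new centriole forms, was the brightest of the group. It stood at 8.18, 7.82 and 8.01 in FR and at 8.29, 8.22 and 8.05 in DMSO, overlapping ranges with a change of -0.19 (95% interval -0.43 to 0.05). The other probe set of Cep63 changed by 0.13 and did not pass either. Cep152 itself changed by -0.02 (-0.22 to 0.19). Cep76, a brake on repeated duplication, lay lower in every FR array and missed the threshold (-0.23, adjusted p = 0.0549), as did Cep57l1 (-0.33, adjusted p = 0.0591), whose groups overlapped. Cep192, a scaffold of the pericentriolar material, changed by -0.19 on its brightest probe set (adjusted p = 0.104), while another of its 3 probe sets fell (-0.52). The intervals of the 11 that did not pass reached from -0.59 to 0.34.

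Genes of the distal appendages, the transition zone and cilium assembly fell in 4 of 10 cases and rose in 1. The 4 that fell lay within a narrow band of change. Cep290, a linker of the transition zone to the ciliary membrane, had levels of 6.52, 6.24 and 6.41 in FR, against 6.87, 6.94 and 6.78 in DMSO (log2 change -0.47, SE 0.0955, adjusted p = 0.00399). Cep162, which guides transition zone assembly, had 7.53, 7.26 and 7.31 in FR, against 7.86, 7.83 and 7.81 in DMSO (-0.47, adjusted p = 0.00332). In both genes the lowest DMSO array stood above the highest FR array.

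Cep83, the distal appendage protein that the others of that structure need to dock, had 6.87, 6.64 and 6.78 in FR, against 7.22, 7.17 and 7.24 in DMSO (-0.45, adjusted p = 0.00312). Cep41, needed for glutamylation of ciliary tubulin, had 5.73, 5.73 and 5.74 in FR, against 6.23, 6.35 and 6.15 in DMSO (-0.51, adjusted p = 0.00112). Its FR levels lay just under the background level, so it was at least 1.39-fold lower with FR. The calls of these 4 genes held in each fit that left out 1 array, with adjusted p of at most 0.0197.

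Other genes of the same structures did not pass. Cep164, which marks distal appendages and recruits the kinase Ttbk2, stood at 7.01, 6.92 and 6.77 in FR and at 6.98, 7.09 and 6.93 in DMSO, overlapping groups with a change of -0.10 (95% interval -0.30 to 0.11). Its other probe set changed by 0.05. Cep89, also of the distal appendages, changed by -0.14 (-0.32 to 0.05). Cep126, a microtubule organiser at the cilium base, rose. It had 5.85, 5.79 and 5.84 in FR, against 5.20, 5.47 and 5.01 in DMSO (0.60, SE 0.113, adjusted p = 0.00248). Its DMSO mean lay under the background level, so the rise is bounded only as at least 1.04-fold.

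**Figure D2:**
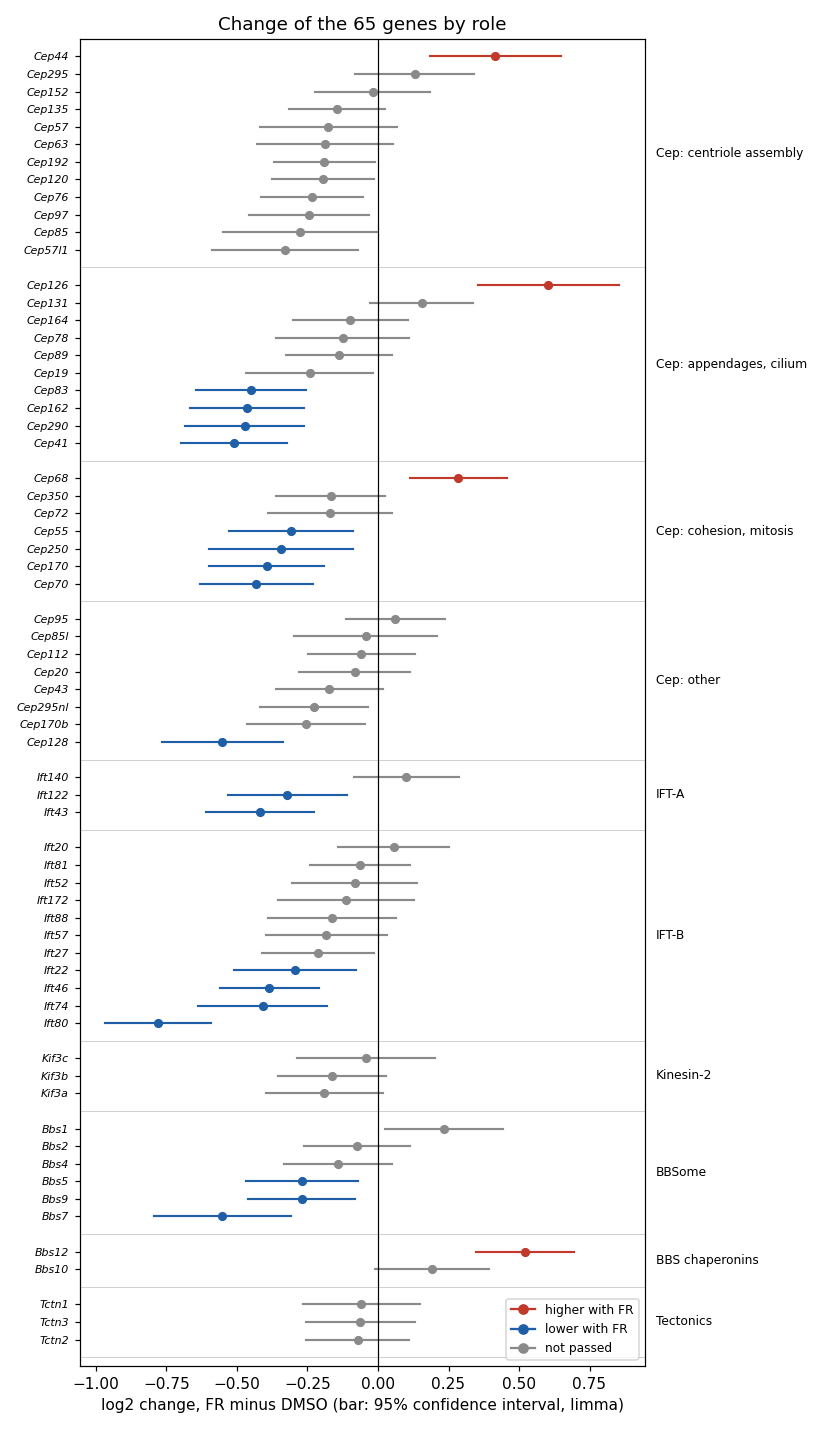
Points give the log2 change (x axis, FR minus DMSO) of each of the 65 genes with its 95% confidence interval from limma, grouped by role down the page. Falls (blue) stand in the appendage and cilium, cohesion and mitosis, IFT-A, IFT-B and BBSome groups and, for Cep128, among the other Cep genes, while the kinesin-2 motors and the tectonics have intervals that all cross 0.

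Cep genes of centrosome cohesion, microtubule anchoring and cell division fell in 4 of 7 cases and rose in 1. Cep170, a subdistal appendage protein that anchors microtubules, was the brightest, with 8.97, 8.70 and 8.89 in FR, against 9.22, 9.28 and 9.24 in DMSO (log2 change -0.39, SE 0.0921, adjusted p = 0.00894). Cep70 had 4.75, 4.68 and 4.58 in FR, against 5.03, 5.23 and 5.04 in DMSO (-0.43, adjusted p = 0.0049). The FR and DMSO arrays did not overlap for either gene, but both groups of Cep70 lay under the background level, so no fold is given.

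Cep55, which builds the midbody for the last cut of cell division, had 6.51, 6.53 and 6.31 in FR, against 6.76, 6.88 and 6.62 in DMSO (-0.31, SE 0.0994, adjusted p = 0.0412). Cep250, the linker that holds centrioles together, fell by 0.34 (adjusted p = 0.0476). Cep68, another protein of that linker, rose, with 7.27, 7.33 and 7.33 in FR, against 7.00, 7.02 and 7.06 in DMSO (0.28, adjusted p = 0.0203). The calls of both linker genes depended on the settings. That of Cep250 was lost with quantile normalization, cyclic loess or array weights, and that of Cep68 with arrays centred on their medians. Single arrays also decided these calls and that of Cep55. Cep55 and Cep250 did not pass without FR replicate 1 or 3 or DMSO replicate 1 or 2 (adjusted p up to 0.153 and 0.18), nor Cep68 without any 1 of the DMSO arrays (up to 0.0791).

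Cep350, which binds microtubules at the centriole, has 6 probe sets. The brightest did not pass (-0.17, adjusted p = 0.178), all 6 changes lay below 0 (-0.52 to -0.12), and 2 fell when each probe set was tested. Among the 8 Cep genes of other or less settled role 1 fell, Cep128, a subdistal appendage gene, with 6.25, 6.43 and 6.44 in FR, against 6.95, 7.04 and 6.79 in DMSO (-0.55, SE 0.097, adjusted p = 0.00164). It was 1.47-fold lower with groups clear of each other. Cep43, a centriole protein needed to build cilia and the brightest of these 8, stood at 7.88, 7.68 and 7.73 in FR and at 7.97, 7.92 and 7.93 in DMSO (-0.17, adjusted p = 0.158).

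Of the 14 Ift genes of intraflagellar transport 6 fell and 0 rose. By limma at an unadjusted p under 0.05 no Ift gene rose either. The largest change of all 65 genes was here. Ift80, a complex B subunit whose loss causes a skeletal ciliopathy in humans, had 6.74, 6.73 and 6.57 in FR, against 7.47, 7.43 and 7.49 in DMSO. It was 1.72-fold lower (log2 change -0.78, 95% interval -0.97 to -0.59, adjusted p = 5.67e-05), and each fit without 1 array kept the call (adjusted p of at most 0.000477).

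Of the 11 complex B genes 4 fell, and the subunits of the same complex did not move alike. Ift74, which with Ift81 binds the tubulin cargo, had 7.76, 7.44 and 7.59 in FR, against 8.14, 7.96 and 7.92 in DMSO (-0.41, adjusted p = 0.0139). Ift46, of the complex B core, had 8.63, 8.53 and 8.55 in FR, against 8.98, 8.94 and 8.94 in DMSO (-0.38, adjusted p = 0.00443). Its partner Ift52 changed by -0.08 (95% interval -0.30 to 0.14) and Ift81 by -0.06 (-0.24 to 0.11). Ift22, a small GTPase-like subunit, fell by 0.29 (adjusted p = 0.0456), a call that only the fit without DMSO replicate 1 kept of the 6 that left out an array (adjusted p up to 0.181 in the others), and that was also lost with quantile normalization, cyclic loess or array weights. Ift74 was not called without DMSO replicate 1 (adjusted p = 0.0612).

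Ift88, a core subunit without which mouse cells lack cilia, stood at 6.89, 6.86 and 6.81 in FR and at 7.22, 6.98 and 6.85 in DMSO, a change of -0.16 (95% interval -0.39 to 0.06). Ift20, which also works at the Golgi, was the brightest of all 65 genes, with 9.25, 9.40 and 9.18 in FR and 9.19, 9.18 and 9.28 in DMSO (0.06, 95% interval -0.14 to 0.25). Both genes had overlapping groups. Ift172, Ift57 and Ift27 did not pass, with changes of -0.11, -0.18 and -0.21.

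In complex A 2 of the 3 Ift genes fell. Ift43 had 8.36, 8.31 and 8.15 in FR, against 8.69, 8.64 and 8.73 in DMSO (-0.42, SE 0.0871, adjusted p = 0.00474), a call that each fit without 1 array kept. Ift122 had 6.67, 6.50 and 6.37 in FR, against 6.78, 6.84 and 6.88 in DMSO (-0.32, adjusted p = 0.029). Its call was lost in 5 of the 6 fits that left out an array, all but that without FR replicate 1 (adjusted p up to 0.0962). Ift140, another subunit, lay slightly above DMSO in every FR array without passing (0.10, adjusted p = 0.398). The subunits of complex A with other names fell too: Wdr35 by 0.92 (SE 0.127, adjusted p = 0.000313), Ttc21b by 0.72 (adjusted p = 0.000209) and Wdr19 by 0.34 (adjusted p = 0.0192), the last not called without FR replicate 3 or DMSO replicate 1 or 2 (up to 0.0689). With these, 5 of the 6 subunits of complex A fell, against 5 of 17 measured of complex B, groupings put together after the values were seen. The difference between the complexes was not tested.

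The kinesin-2 motors did not pass. Kif3a stood at 7.93, 8.01 and 7.77 in FR and at 8.16, 8.13 and 7.99 in DMSO, a change of -0.19 (95% interval -0.40 to 0.02, adjusted p = 0.16). Kif3b changed by -0.16 (-0.36 to 0.03) and Kif3c, a relative found mostly in neurons, by -0.04 (-0.29 to 0.20). Kifap3, the accessory subunit that joins Kif3a and Kif3b, fell by 0.39 (adjusted p = 0.0149). It was named after its value was seen, and its call was lost without FR replicate 3 or DMSO replicate 1 or 2 (adjusted p up to 0.0555).

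**Figure D3:**
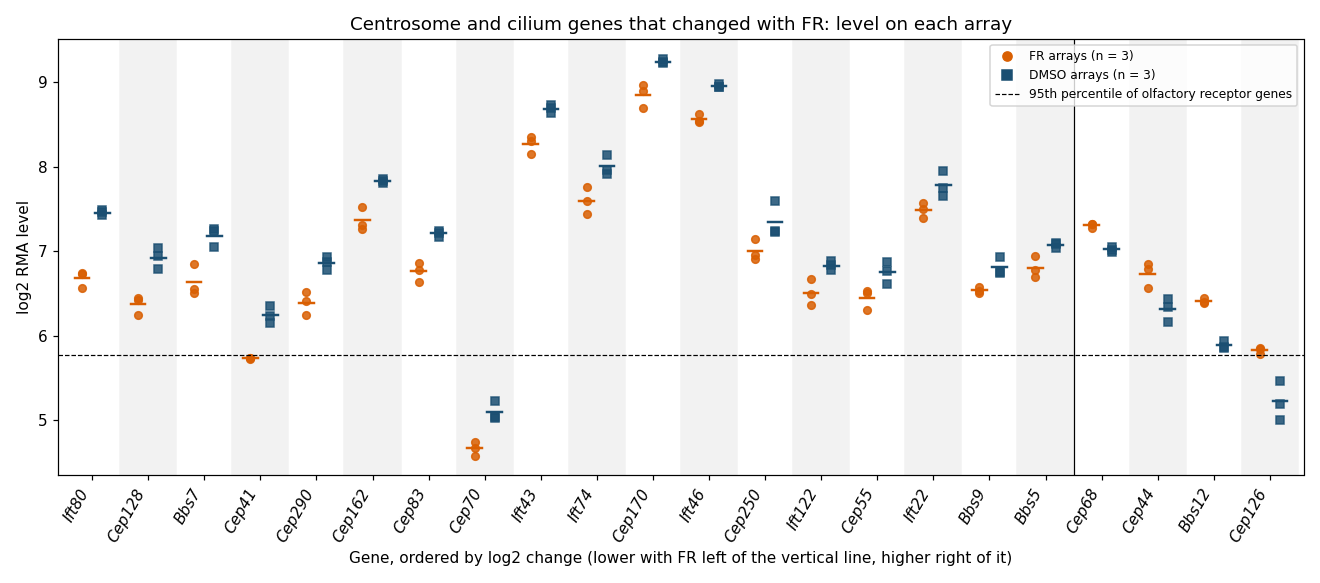
Levels (y axis, log2 RMA) are shown for the 22 genes that fell or rose, with the 3 FR arrays as orange circles left of the 3 DMSO arrays as blue squares and a line at each mean. In each of the 22 the groups are clear of each other. Ift80 has the widest gap among the falls, and Cep70, the FR arrays of Cep41 and the DMSO arrays of Cep126 lie under the dashed background level of 5.77.

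Of the 6 Bbs genes for BBSome subunits 3 fell and 0 rose in limma's test, while 1, Bbs1, was higher at an unadjusted p under 0.05. Bbs7, which carries the X-box shown above, had 6.85, 6.55 and 6.51 in FR, against 7.26, 7.25 and 7.05 in DMSO. It was 1.47-fold lower (log2 change -0.55, SE 0.109, adjusted p = 0.00352), a call kept without any 1 array. Bbs5 had 6.94, 6.69 and 6.78 in FR, against 7.04, 7.10 and 7.09 in DMSO (-0.27, adjusted p = 0.0459), and Bbs9 fell by 0.27 (adjusted p = 0.0379). Bbs9 did not pass in any of the 6 fits that left out an array (adjusted p up to 0.155). Of those fits Bbs5 passed only in that without FR replicate 1 (otherwise up to 0.129), and it did not pass with quantile normalization or cyclic loess.

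Bbs1, the subunit mutated most often in human Bardet-Biedl syndrome, leaned the other way without passing. It stood at 6.32, 6.39 and 6.41 in FR and at 6.24, 6.22 and 5.97 in DMSO (0.23, adjusted p = 0.0912), and a fit restricted to genes above the background level called it higher (adjusted p = 0.047). Bbs4 stood at 5.80, 5.77 and 5.96 in FR and at 5.95, 5.96 and 6.04 in DMSO, a change of -0.14 (95% interval -0.33 to 0.05). Bbs2 changed by -0.07 (-0.26 to 0.11). Ttc8, also a BBSome subunit, fell by 0.50 (adjusted p = 0.00144), while Lztfl1, which restrains BBSome entry, rose by 0.35 (adjusted p = 0.00917). The rise of Lztfl1 did not pass with the mean of its probe sets (adjusted p = 0.119).

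Of the genes for chaperonin-like proteins that assemble the BBSome, 1 of 2 rose. Bbs12 had 6.44, 6.39 and 6.41 in FR, against 5.94, 5.86 and 5.87 in DMSO, close values within each group and 1.43-fold higher with FR (log2 change 0.52, SE 0.0787, adjusted p = 0.000591). The call held without any 1 array. Its partner Bbs10 changed by 0.19 (95% interval -0.01 to 0.39, adjusted p = 0.144).

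The tectonics did not pass. Tctn1, needed for Hedgehog signalling in mouse embryos, stood at 6.80, 6.76 and 6.93 in FR and at 6.77, 7.03 and 6.88 in DMSO (-0.06). Tctn2 changed by -0.07 and Tctn3 by -0.06, and the 3 intervals lay between -0.27 and 0.15. The other probe set of Tctn1 changed by 0.01.

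Genes of the same structures under other names were taken as lists with earlier results of these data known. For comparison with the counts of these and the following lists, 14.5% of all genes fell and 13.4% rose. Above the background level 22.5% fell and 14.0% rose. Of 16 other intraflagellar transport and dynein-2 genes 5 fell and 1 rose (median change -0.13). Wdr35, Ttc21b, Wdr19 and Kifap3, already given above, are among the 5 that fell. Ttc26, counted above with complex B, fell by 0.61 (adjusted p = 0.000907), with its FR mean just under the background level. Wdr34, a dynein-2 intermediate chain, rose by 0.40 (adjusted p = 0.0234), a call lost without FR replicate 2 or DMSO replicate 1 or 3 (adjusted p up to 0.0735). Of 19 transition zone and inversin compartment genes 4 fell (21.1%) and 0 rose. Ahi1, mutated in Joubert syndrome, fell by 0.87 (adjusted p = 5.66e-05), the kinase gene Nek8 by 0.52, Cc2d2a by 0.38 and Tmem67 by 0.31. The call of Tmem67 held in the fit without FR replicate 1 and was lost in the other 5 that left out an array (adjusted p up to 0.11).

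Of 41 other centriole and centrosome genes 8 fell and 1 rose (median -0.12). These are shares of 19.5% and 2.44%, against 22.5% and 14.0% of all genes above the background level. Haus7, of the augmin complex that branches spindle microtubules, fell by 1.04 (adjusted p = 0.000249), with its FR mean at the background level. Cdk5rap2, which attracts gamma-tubulin, fell by 0.63, Sdccag8 by 0.56 and Ofd1 by 0.43, the last not called without FR replicate 2 or 3 or DMSO replicate 1 or 3 (adjusted p up to 0.0853), nor with quantile normalization or cyclic loess. The duplication kinase gene Plk4 changed by -0.09 (adjusted p = 0.514) and Pcm1, the scaffold of centriolar satellites, by 0.10 (adjusted p = 0.389).

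Of 11 ciliary membrane trafficking genes 3 fell (27.3%) and 0 rose. Rab23, a GTPase that restrains Hedgehog signalling, was 1.83-fold lower (log2 change -0.87, adjusted p = 2.84e-05). Rab3ip, the activator of Rab8 at the cilium base, fell by 0.77 (adjusted p = 0.000478), and Pde6d, a carrier of prenylated proteins, by 0.56 (adjusted p = 0.00193). Each of these calls was kept without any 1 array.

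Hedgehog pathway genes, whose signal passes through the cilium, changed in 3 of 16 cases, while 27.9% of all genes changed in either direction. Gli2, a transcription factor of the pathway, rose by 0.43 (adjusted p = 0.00422) and the co-receptor gene Boc fell by 0.45 (adjusted p = 0.00339). Hhip, a pathway target and inhibitor with both means under the background level, rose by 0.26 (adjusted p = 0.0303), a call kept only without FR replicate 1 among the fits that left out an array (otherwise up to 0.103). It was also lost with quantile normalization, median centring, cyclic loess and robust moderation (adjusted p up to 0.16). The pathway's usual readouts did not pass: Gli1 changed by 0.16 (adjusted p = 0.158) and Ptch1 by 0.08 (adjusted p = 0.499). Among ciliary receptors, channels and adenylyl cyclases 2 of 7 rose and 1 fell. Adcy5, an adenylyl cyclase gene, was 2.35-fold higher (log2 change 1.23, adjusted p = 5.4e-06), and Adcy3, the cyclase that marks cilia, rose by 0.28 (adjusted p = 0.0376), lost in 5 of the 6 fits that left out an array (up to 0.13) and with median centring. Pkd1, the polycystin gene, fell by 0.47 (adjusted p = 0.0119), lost without DMSO replicate 3 (0.0515).

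Rfx3, a transcription factor that drives ciliary genes, rose by 0.52 (adjusted p = 0.00515) and was the only one of 9 RFX and motile cilium regulators to pass. Of these 9, 6 had both means under the background level. Foxj1, the master regulator of motile cilia, changed by -0.01 and lay under the background level in both groups. All 14 markers of multiciliated cells had both means under that level, and 0 of them passed in limma's test.

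**Figure D4:**
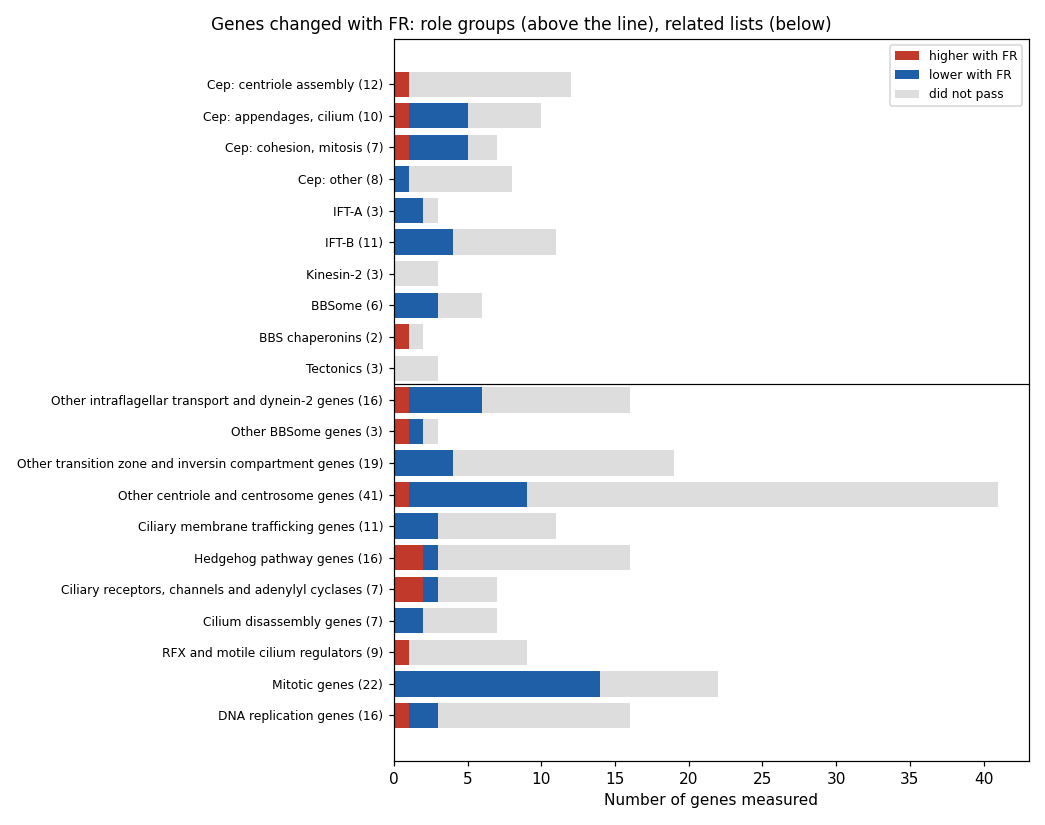
Bars count the genes measured in each role group of the 65 (above the line) and in each related list (below it, number measured in parentheses), split into those that rose (red), fell (blue) and did not pass (grey) with FR. Mitotic genes have the longest blue bar, with 14 of 22, while DNA replication genes have 2 of 16.

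Genes of cell division moved beside these families. Of 22 mitotic genes 14 fell and 0 rose (63.6%, median change -0.39), and their mean level per array lay between 7.76 and 7.96 in FR, against 8.17 to 8.36 in DMSO. Kif23, a motor of the midbody, fell by 0.91 (adjusted p = 0.000177), Cenpf by 0.82, Ect2 by 0.77 and Anln by 0.75. Of 16 DNA replication genes 2 fell, Rrm1 by 0.71 and Gins2 by 0.41, and Tyms rose by 0.30 (median -0.01). Gins2 was not called without DMSO replicate 2 (adjusted p = 0.0509), nor Tyms in 4 of the 6 fits that left out an array (up to 0.0964), all but those without FR replicate 1 or 3, nor with median centring. Of 7 cilium disassembly genes Nek2 fell by 0.50 and the mitotic kinase gene Plk1 by 0.40, while Aurka, which starts disassembly, changed by -0.16 (adjusted p = 0.277). Plk1 and Aurka are also counted among the mitotic genes. Nek2 was not called without FR replicate 3 (adjusted p = 0.0512), nor Plk1 without that array or DMSO replicate 2 (up to 0.0808). The part of cell division in the falls of the Cep and Ift genes was not tested.

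Markers of cell types moved as well, and whether the make-up of the cultures changed was not tested. Fibroblast markers had a median level of 10.3, and of the 9 measured 4 fell and 3 rose. The collagen genes Col1a2 and Col1a1 fell by 1.57 and 1.09, Thy1 by 0.71 and Vim by 0.66, while Lum rose by 2.17, Col3a1 by 0.66 and Dcn by 0.48. Pdgfra (11.1 in FR and 11.2 in DMSO) did not pass, nor did Fap, which lay under the background level in both groups. Keratinocyte markers rose in 17 of 19 cases, and their mean level was 7.04 to 7.11 in the FR arrays, against 5.96 to 6.06 in the DMSO arrays. Their summed linear level was 4157 to 4258 in FR, against 1480 to 1591 in DMSO, and 3 of the 19 had both means under the background level. Muscle markers rose in 8 of 9 cases (summed linear level 1369 to 1565 in FR, against 560 to 632 in DMSO). The mean level of the 65 genes was 6.86 to 6.97 in FR, against 7.04 to 7.10 in DMSO. The part of these cell types in the changes of centrosome and cilium genes was not tested.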

How the data were processed

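Total RNA was measured on 6 one-colour arrays. The deposited values are on the log2 scale, with 35556 probe sets per array, and the authors made them by RMA in the oligo package, per the submitters' processing notes, with versions and settings not given in the sources used here. No further normalization was applied. Probe sets with 1 symbol in the platform annotation (21789) gave 19938 genes, and the gene table changed 0 symbols by identifier. Array correlations lay between 0.993 and 0.996 within groups and between 0.972 and 0.978 between groups.

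FR was compared with DMSO in limma 3.58.1 under R 4.3.3 (linear model with moderated variances, two-sided, group as the only term, Benjamini-Hochberg adjustment over all genes, threshold 0.05). Precision is limited by the number of arrays, and the median SE of a log2 change was 0.0962. On simulated data for this comparison (19938 genes, 200 changed) the fit recovered 2% of changes of 0.3, 42% of 0.5 and 90% of 1, with 3 false calls. In the data 5559 genes (27.9%) passed, so the adjusted threshold was stricter in the simulation. Its recovery rates therefore do not give the share of such changes found here, where Bbs9 and Bbs5 passed at -0.27 each. Alternatives were other scalings, a filter on dim genes, other uses of probe sets, other variance settings, a minimum change, a replicate block and leaving out each array. The naming rule was that every gene that passed is named, with values per array for the 8 largest falls and up to 8 largest rises, the brightest gene of each role and 9 genes fixed by name, and from each related list up to 4 genes that passed. Further genes were singled out with their values in view. The genes and lists were chosen with earlier results of these data known. Replicates with the same number were not treated as pairs in the main fit, and the labels do not say whether they are pairs. Sequences are RefSeq's, and gene coordinates are not given because the array's build is not named in the sources used here.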

Additional observations from a re-analysis of the deposited data

How the results depend on the processing

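All 22 calls kept their direction under each alternative that gave a value. In limma's test, 13 of them also passed in every setting except a test against a minimum log2 change of 0.5: Ift80, Cep128, Bbs7, Cep41, Cep290, Cep162, Cep83, Cep70, Ift43, Cep170, Ift46, Cep126 and Bbs12. The other 9 were lost in at least one further setting. Against a minimum change of 0.5, 0 of the 65 rose and 0 fell, as did 412 and 430 of all genes. Leaving out 1 array at a time, 2 to 4 of the 65 rose, 12 to 16 fell, and the median change lay between -0.21 and -0.15, with 1803 to 2975 of all genes higher and 2230 to 2939 lower. The median change of the 65 was -0.11 with quantile normalization and -0.10 with cyclic loess, against -0.17, while the median over all genes was 0.01 with either, against 0.05. Centring arrays on their medians gave 24 falls and 3 rises, and the share of rises among all calls was 37.1% there, against 48.0%. Replicates with the same number did not deviate together (r from -0.07 to 0.05), and with the replicate number as a block 16 of the 65 fell and 4 rose. The block left Ift122, Bbs9 and Bbs5 without a call (adjusted p = 0.0536, 0.0605 and 0.075), and Hhip among the related genes (0.0564). Of the 35 related genes tried, all kept their direction. Cep70, Cep72, Cep97 and Cep126 have no value with dim genes left out.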
